A study of Mus musculus with 12 samples.

Results

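The comparison described here sets cultured mouse fibro/adipogenic progenitors given an antisense oligonucleotide (AMO) against a 5' splice site, called 5'ss AMO in the labels, beside the same cells given a control AMO, both without PDGF-AA. The arrays were chosen by their titles and number 4 of the 12 in the series, 2 for each oligonucleotide. Of the 35556 transcript clusters on the Affymetrix Mouse Gene 1.0 ST array, the 21789 with exactly 1 gene symbol were used, and they stand for 19938 genes. Same-numbered replicates were compared as pairs, so each gene has a difference in the replicate 1 pair and a difference in the replicate 2 pair.

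Cells of both groups came from uninjured hindlimb muscle of male C57/Bl6 mice aged 8 to 12 weeks, and each biological replicate pooled cells of 2 mice. After 2.5 days of growth came a first transfection with AMO at 10 µM, lasting 48 hours, and then a second at the same concentration and of the same length, with no growth factor added (PDGF-AA dose 0 in the labels). The control group thus carried an oligonucleotide and went through both transfections as well. The other 8 arrays hold a pA AMO without PDGF-AA, and all 3 oligonucleotides with PDGF-AA at a dose the labels give as 50 uM, again 2 arrays a group.

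Fibro/adipogenic progenitors are mesenchymal cells of skeletal muscle that carry the receptor PDGFRα and can give rise to fibroblasts and adipocytes. A 5' splice site marks the start of an intron and is read by the U1 small nuclear ribonucleoprotein, which also holds back the use of polyadenylation signals within introns. Masking such a site can therefore keep an intron from being removed and can expose a polyadenylation signal inside it, which gives a shortened transcript, and the series' title concerns such intronic polyadenylation of PDGFRα. The comparison asks what the 5' splice site AMO changes in these cells when the ligand PDGF-AA is not added.

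All levels are log2 values normalized together by the authors, with array medians between 6.04 and 6.23 and values from 1.36 to 14.10. Of the 22 measured genes of the progenitor and mesenchymal list, 20 lay above 6.10, the level that 40% of the clusters fall below, against 11847 of all 19938 genes by their brightest cluster. Of the markers of other cells, 4 of 17 macrophage and leukocyte genes, 6 of 14 endothelial genes, 4 of 10 epithelial genes and 5 of 9 Schwann cell and neural genes lay above it. So did 7 of 9 tendon genes, 8 of 12 smooth muscle and pericyte genes and 21 of 28 muscle fibre and myoblast genes. Itga7, an integrin that also marks muscle cells, was counted in the progenitor list. It was at 7.41 and 6.80 on the control arrays and 7.02 and 7.15 on the 5'ss arrays. The mean level of the muscle genes differed within the groups, at 7.33 and 6.54 on the control arrays and 6.72 and 6.97 on the 5'ss arrays. In such bulk samples fewer cells of a type and less RNA per cell cannot be told apart.

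Kng2 was the gene that fell with 5'ss AMO, by a factor of 2.62, in the test that takes the replicate pairs into account, while a group of interferon response genes lay lower and genes of glycolysis, hypoxia and cholesterol synthesis lay slightly higher in both pairs without any member passing the test. In limma, 0 of 21789 clusters (0%) passed an adjusted p of 0.05 in either direction, and the smallest adjusted p was 1. At an unadjusted p under 0.05 there were 450 clusters, or 2.07%. With the replicate number as a block in the limma fit, 1 cluster passed as lower, that of Kng2 (0.00459%), 0 passed as higher, and 1065 clusters, or 4.89%, had an unadjusted p under 0.05. Differences in the pairs had a standard deviation of 0.17 and 0.19 on the log2 scale, and across all clusters the pairs correlated at -0.02, or at 0.085 across the 13010 clusters above the 6.10 level, where clusters are not independent replicates.

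Kng2 encodes a kininogen, the secreted precursor from which the peptide bradykinin is cut. Its transcript cluster, 10438681, lay at 9.73 and 9.93 on the control arrays and at 8.22 and 8.66 on the 5'ss arrays. Both 5'ss arrays were lower than both control arrays by more than the spread within either group. The means were 9.83 ± 0.14 and 8.44 ± 0.31 (SD, n = 2 each), a difference of -1.39 (SE 0.23), with -1.51 in the replicate 1 pair and -1.27 in the replicate 2 pair. The adjusted p from limma was 1 without the block and 0.0027 with it, and the next smallest with the block was 0.45. With the block fitted on the 6 arrays without PDGF-AA alone, the adjusted p in limma was 0.071 and no cluster passed. The call with the block was lost without control replicate 1 (adjusted p = 0.064 from limma), without 5'ss replicate 1 (0.084) and without 5'ss replicate 2 (0.058), and it held with each of the other 9 arrays left out, where p ran from 0.0053 to 0.019.

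Kng2 was lower on the 5'ss arrays with PDGF-AA as well, where the control arrays were at 9.39 and 9.85 and the 5'ss arrays at 8.37 and 8.61. Those pairs differed by -1.02 and -1.24. In limma without the block this difference did not pass (adjusted p = 0.46) and 0 clusters did, while with the replicate block it passed (adjusted p = 0.017) among 22 of 21789 clusters (0.101%). With pA AMO and no PDGF-AA, which is set against the same control arrays, Kng2 was at 9.46 and 9.87 and its difference was -0.17. Kng1, the close paralog, was at 7.15 and 7.40 with control AMO and at 6.79 and 7.19 with 5'ss AMO. Probes of the paralogs can share signal, so the value of each is uncertain, but with PDGF-AA they lay on opposite sides, with Kng1 at 0.45 and 0.47. Of the 9 measured genes of the kininogen and angiotensin list, which also holds the angiotensin precursor and the receptors of both peptides, 5 were below 0 in both pairs and 1 above, and none but Kng2 passed.

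**Figure D1:**
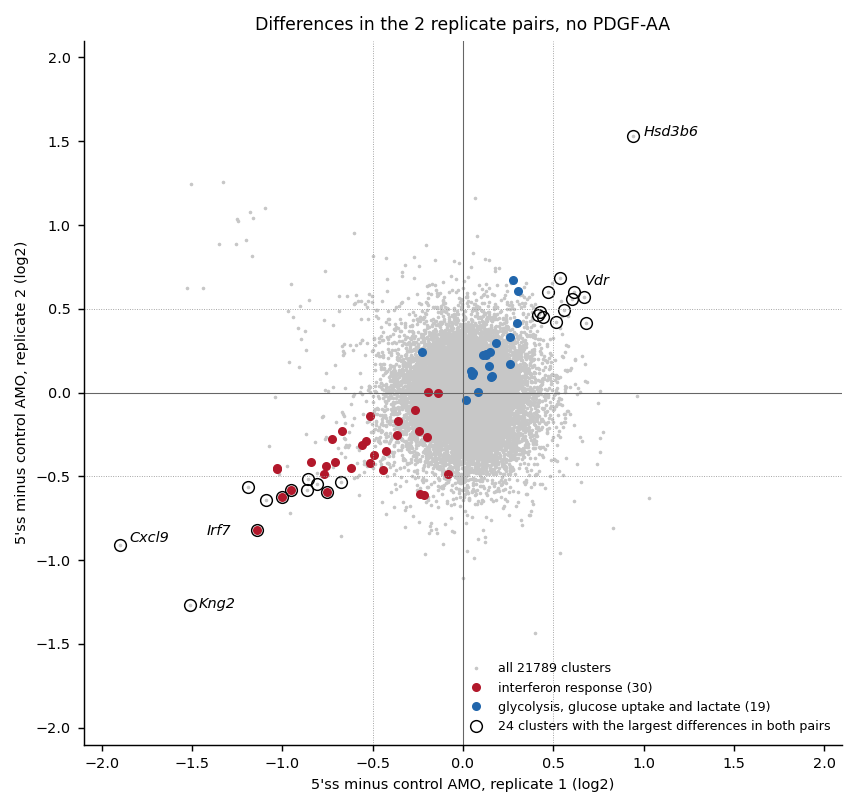
Each point is a transcript cluster, with its 5'ss minus control AMO difference in the replicate 1 pair on the horizontal axis and in the replicate 2 pair on the vertical axis, both in log2 units without PDGF-AA; red points are the 30 interferon response genes, blue points the 19 glycolysis genes, circles the 24 clusters named by their differences, and dotted lines 0.5. Kng2, Cxcl9 and Irf7 lie far below 0 in both pairs and Hsd3b6 far above.

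Few clusters differed by at least 0.5, a factor of 1.41, in both pairs: 6 were higher (0.0275% of the clusters) and 19 lower (0.0872%). The groups did not overlap for 2735 clusters that were higher (12.6%) and 2409 that were lower (11.1%), so a gap between these groups of 2 is common. Of the 19 lower clusters, 4 belong to the interferon response list. On the arrays with PDGF-AA 49 clusters were higher and 27 lower by this measure. Ptger3 was higher in all 4 pairs by at least 0.5, and Kng2, Irf7 and Ccl5 were lower in all 4.

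The interferon response genes are transcribed when interferon binds its receptor and the STAT and IRF factors reach interferon-stimulated response elements, and their products detect or block viruses. Such an element was searched for as the letters GAAANNGAAA or their reverse complement TTTCNNTTTC in RefSeq promoter windows (GRCm38.p6) from 250 bases before to 50 after a transcript's start. The letters occurred in 12 of 27 windows of the 21 list members found there (44.4%), against 3.44% of all 32851 windows. Of the 21 members, 12 had a match in a window, and Irf7 had 0. The list was made of known interferon response genes, so this share describes the list and is not a result of the comparison. A match is a description, not a site of binding. The stretches of Ifit3 (chr19:34583328-34583427, plus strand) and Ifit1 (chr19:34640740-34640839, plus strand), the first members with a match before the start when ordered by the smaller of their pair differences, are given with the matches in capitals.
Ifit3: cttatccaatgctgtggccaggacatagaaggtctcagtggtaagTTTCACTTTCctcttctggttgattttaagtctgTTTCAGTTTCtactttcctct
Ifit1: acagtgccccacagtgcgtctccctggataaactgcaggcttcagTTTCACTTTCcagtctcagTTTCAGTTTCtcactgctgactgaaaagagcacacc

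Of the 34 interferon response genes listed, 30 were measured, 28 of them above the 6.10 level. None passed limma with or without the block, and 9 had an unadjusted p under 0.05. The list was written with earlier results of the whole series known, so its shares are not independent of these data. All 30 had a mean difference below 0, and 29 were below 0 in both pairs, against 23.7% of all genes. For 28 of the 30, both 5'ss arrays lay below both control arrays, against 11.1% of the clusters. The median difference was -0.44, with -0.53 in the replicate 1 pair and -0.41 in the replicate 2 pair, while the median over all genes was 0.0009. Without 5'ss replicate 1 it was -0.34, and without 5'ss replicate 2 it was -0.57.

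Irf7, the transcription factor that amplifies the interferon response, was at 11.45 and 11.26 on the control arrays and at 10.31 and 10.43 on the 5'ss arrays. The groups did not overlap, and the difference was -0.98 (SE 0.31), with an adjusted p of 1 in limma and 0.92 with the block. Ifit3, which encodes an antiviral protein, was at 11.11 and 11.31 with control AMO and at 10.10 and 10.69 with 5'ss AMO, a difference of -0.81 (SE 0.41). Its neighbour Ifit3b, which can share probe signal with it, was at 7.81 and 8.25 and then at 6.61 and 7.69. For Irf7 and Ifit3 every 5'ss array was below every control array, with the lowest value on the replicate 1 array.

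Zbp1, a sensor of Z-form nucleic acids, was at 9.98 and 10.08 with control AMO and at 9.23 and 9.49 with 5'ss AMO, a difference of -0.67 (SE 0.21). Mx2, an antiviral GTPase, was at 6.97 and 7.32 and then at 6.02 and 6.74, and Ifit1, which binds viral RNA caps, was at 11.19 and 11.39 and then at 10.42 and 10.90. These 3 genes kept the groups apart as well. Irf1, a factor induced most strongly by type II interferon, was the member not below 0 in both pairs, at 8.53 and 8.56 with control AMO and 8.34 and 8.57 with 5'ss AMO, so its groups overlapped. The mean difference nearest 0 was that of Eif2ak2, the kinase PKR that double-stranded RNA activates, at -0.069.

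**Figure D2:**
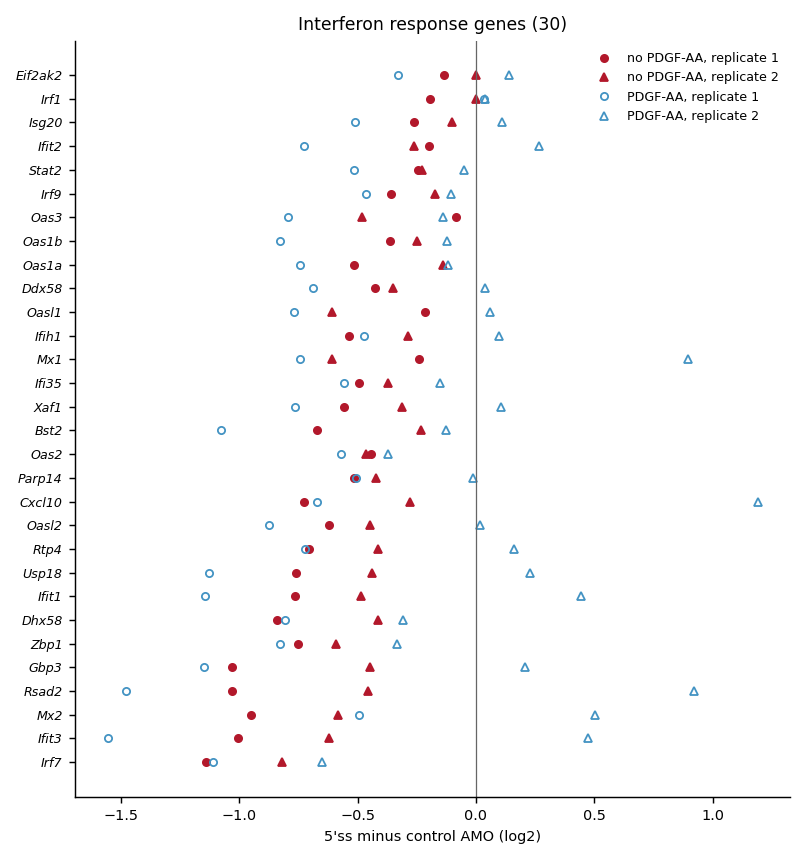
Each row is an interferon response gene and the horizontal axis its 5'ss minus control AMO difference in log2 units, with filled red symbols for the pairs without PDGF-AA, open blue symbols for those with PDGF-AA, circles for replicate 1 and triangles for replicate 2. Without PDGF-AA 29 of the 30 genes lie below 0 in both pairs, while with PDGF-AA the replicate 1 symbols lie low and the replicate 2 symbols scatter about 0.

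The mean level of the 30 interferon response genes was 9.14 and 9.23 on the control arrays and 8.58 and 8.85 on the 5'ss arrays. On the pA arrays without PDGF-AA it was 9.13 and 8.96. With PDGF-AA it was 9.32 and 8.96 on the control arrays, 9.83 and 9.08 on the pA arrays, and 8.55 and 9.08 on the 5'ss arrays. The 5'ss group was thus below its control in both pairs without PDGF-AA, and with PDGF-AA in the replicate 1 pair alone, where the pair medians of the members were -0.74 and 0.048. The macrophage and leukocyte markers had medians of -0.021 and -0.0007 in the pairs without PDGF-AA, with 4 of 17 below 0 in both pairs and 3 above. The muscle genes, at -0.55 and 0.50, lay on opposite sides in the pairs.

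Upstream of these genes, the 13 genes of the nucleic acid sensor list, which also holds interferon receptor genes, had a median difference of -0.0062. Of the 13, 7 were below 0 in both pairs and 2 above, against 23.7% and 25.1% of all genes. The sensors Ddx58, Ifih1 and Zbp1 and the kinase gene Eif2ak2 are not among the 13. They belong to the interferon response list, where every mean difference was below 0. Ifnar1 and Ifnar2, the subunits of the type I interferon receptor, differed by 0.053 and 0.086, and Ifnb1, which encodes interferon beta, was at 4.69 and 4.81 with control AMO and at 4.96 and 4.89 with 5'ss AMO. The level of Ifnb1 was below 6.10 on all 4 arrays. Cgas, the sensor of cytosolic DNA, lay the other way and differed most, at 5.93 and 5.84 with control AMO and at 5.28 and 5.66 with 5'ss AMO (-0.42), also below 6.10. None of the 13 passed, and Ifnar1, Ifnar2, Ifnb1 and Cgas were named after their values were seen.

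The chemokine genes Cxcl9 and Ccl5 stood among the genes with the largest lower values. Of the 29 measured chemokines and cytokines, 14 were above 0 in both pairs and 9 below, against 25.1% and 23.7% of all genes. Cxcl9, a chemokine for T cells induced by interferon gamma, was at 8.97 and 9.09 with control AMO and at 7.07 and 8.18 with 5'ss AMO, a difference of -1.40 (SE 0.58). The 5'ss arrays differed from each other by over 1 log2 unit, more than the control arrays did. Ccl5, a chemokine for T cells and monocytes, was at 9.14 and 9.19 and then at 8.28 and 8.61, a difference of -0.72 (SE 0.15) with an adjusted p of 1 in limma and 0.79 with the block. Ccl5 differed by -0.90 and -0.87 in the pairs with PDGF-AA, and Cxcl9 by -1.58 and 0.61.

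Further genes with lower values in both pairs were Ifi209, an interferon-inducible gene (-0.86, SE 0.38), H2-T24, of the class I histocompatibility region (-0.68, SE 0.22), Gbp9, a guanylate-binding protein (-0.69, SE 0.30), and Art3, an ADP-ribosyltransferase family member (-0.60, SE 0.19). None of the 4 passed, and for each the 5'ss arrays lay below the control arrays. Ect2l, with the second smallest p of all, was at 4.10 and 4.09 and then at 3.42 and 3.23, levels below the 6.10 mark, and its difference of -0.77 (SE 0.14) had an adjusted p of 1 in limma and 0.45 with the block. Of the 13 clusters of Ect2l, 3 were below 0 in both pairs and 1 above.

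**Figure D3:**
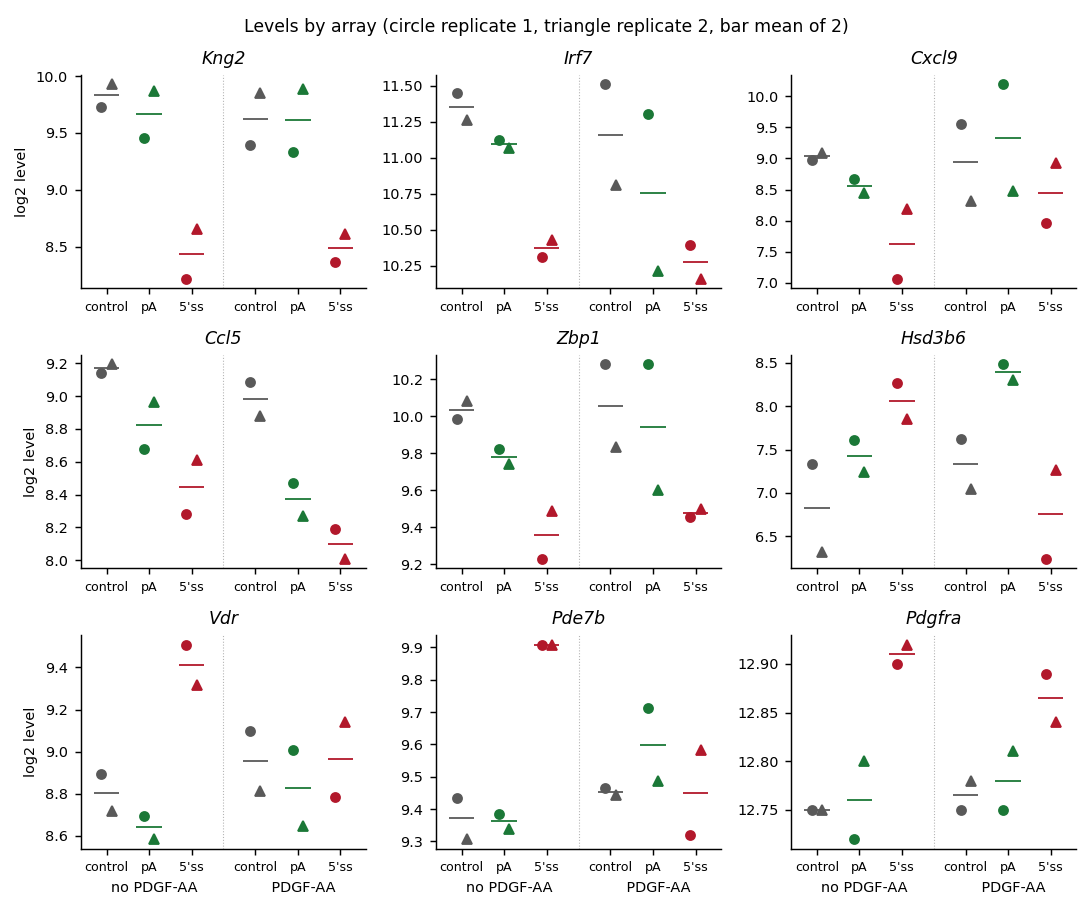
Each panel gives the log2 level of a gene on all 12 arrays by oligonucleotide, without PDGF-AA on the left and with it on the right, with circles for replicate 1, triangles for replicate 2 and bars for the mean of 2. Kng2 lies low on all 4 5'ss arrays, Irf7, Ccl5 and Zbp1 lie below their controls in all 4 pairs, and Hsd3b6, Vdr and Pde7b lie above theirs without PDGF-AA; the axes do not start at 0 and differ between panels.

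Among the genes with higher values, Hsd3b6, which encodes a steroid dehydrogenase, was at 7.33 and 6.32 with control AMO and at 8.27 and 7.85 with 5'ss AMO. The groups did not overlap, and the difference was 1.24 (SE 0.38), with an adjusted p of 1 in limma. With PDGF-AA the pair differences were -1.38 and 0.22, and the difference between the doses, -1.82 (SE 0.53), had an adjusted p of 1 in limma and 0.48 with the block. Pde7b, a cyclic AMP phosphodiesterase, was at 9.43 and 9.31 and then at 9.91 on both 5'ss arrays, and Vdr, the vitamin D receptor, at 8.90 and 8.72 and then at 9.51 and 9.32. Both lay higher in both pairs here, and with PDGF-AA the mean differences were -0.0034 for Pde7b and 0.0075 for Vdr. Those means come from pairs on opposite sides of 0, at -0.15 and 0.14 for Pde7b and -0.31 and 0.33 for Vdr.

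Pde4d, another cyclic AMP phosphodiesterase, was at 5.70 and 5.97 with control AMO and at 6.37 and 6.54 with 5'ss AMO. It was higher by 0.62 (SE 0.20), and all 3 of its clusters were above 0 in both pairs. Ptger3, a receptor of prostaglandin E2, was at 6.16 and 6.31 with control AMO and at 6.70 and 6.99 with 5'ss AMO, and Dio2, which activates thyroid hormone, at 7.34 and 7.43 and then at 7.76 and 7.92. Both had the same sign in the pairs with PDGF-AA, at 0.59 and 0.67 for Ptger3 and 0.44 and 0.57 for Dio2. Ret, a receptor tyrosine kinase, was higher by 0.53 (SE 0.16), and Cxcl13, a chemokine for B cells, by 0.58 (SE 0.16). Cxcl13 was at 5.76 and 6.01 with control AMO and at 6.37 and 6.58 with 5'ss AMO. The control arrays of Pde4d and Cxcl13 lay below 6.10, so their means over the 4 arrays exceeded it through the 5'ss arrays alone. Lpcat2, an enzyme of phospholipid remodelling, was higher by 0.45 (SE 0.16). None of these 6 genes passed, and the 5'ss arrays lay above the control arrays for each.

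Acta2 and Tagln, contractile genes of smooth muscle and myofibroblasts, had higher values within each pair although the groups overlapped. Acta2 was at 9.86 and 8.98 with control AMO and at 10.37 and 9.41 with 5'ss AMO, and Tagln at 7.48 and 6.71 and then at 7.90 and 7.17. Replicate 1 lay above replicate 2 in both groups, and without 5'ss replicate 1 the difference of Acta2 was -0.014. The 23 myofibroblast and contractile genes had a median difference of 0.024, with 9 above 0 in both pairs and 4 below. Hmcn1, which encodes the large matrix protein hemicentin, has 77 clusters, of which 49 were above 0 in both pairs and 3 below, with a median difference of 0.19. Against the same control arrays, pA AMO gave a median of 0.25 over these clusters.

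The PDGF receptors and ligands, which the series' title puts at the centre of the study, differed little. Pdgfra was at 12.75 on both control arrays and at 12.90 and 12.92 on the 5'ss arrays. The 5'ss arrays lay above the control arrays, by 0.16 (SE 0.087), with pair differences of 0.16 and 0.17 and an adjusted p of 1 in limma. A transcript cluster adds up probes along the gene, so this value does not separate full-length from shortened Pdgfra transcripts and does not check the action of the AMO. Pdgfrb, the other receptor chain, was at 11.11 and 11.07 and then at 11.08 and 10.98.

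Among the ligands, Pdgfd was at 8.18 and 8.03 with control AMO and at 8.38 and 8.42 with 5'ss AMO, a difference of 0.30 (SE 0.11) that did not pass. Pdgfa, which encodes the chain of PDGF-AA, was higher by 0.13 (SE 0.10), and its groups did not overlap. Pdgfc was at 0.020 (SE 0.14), below 0 without control replicate 1 or without 5'ss replicate 2, and Pdgfb at -0.092 (SE 0.17), while the receptor-like gene Pdgfrl was at 0.096 (SE 0.17). Of these 7 genes, 4 were above 0 in both pairs and 2 below, and none passed in limma with or without the block.

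Glycolysis turns glucose into pyruvate and lactate, and many of its genes are also transcribed by the hypoxia-inducible factors. Of the 22 genes listed for glycolysis, glucose uptake and lactate, 19 were measured. None passed, 5 had an unadjusted p under 0.05, and 17 were above 0 in both pairs, against 25.1% of all genes. For 16 of the 19, both 5'ss arrays lay above both control arrays, against 12.6% of the clusters. The median difference was 0.17, with 0.14 and 0.22 in the pairs. It was 0.11 without 5'ss replicate 2. With pA AMO, set against the same control arrays, the median was 0.064. The mean difference was above 0 for 16 of the 19 with pA AMO and for 18 with 5'ss AMO. Over all genes it was above 0 for 9854 of 19938 with pA AMO and for 10040 with 5'ss AMO.

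Hk2, which phosphorylates glucose, was at 8.43 and 8.03 with control AMO and at 8.73 and 8.64 with 5'ss AMO, a difference of 0.46 (SE 0.15). Aldoc, an aldolase, was at 7.58 and 7.36 and then at 7.86 and 8.03, a difference of 0.48 (SE 0.13). Pfkfb3, which makes the activator of phosphofructokinase, was at 7.95 and 8.01 and then at 8.25 and 8.42. Each of these 3 genes was higher on both 5'ss arrays. The lactate exporter Slc16a3 was higher by 0.30 (SE 0.10) and the phosphoglycerate kinase Pgk1 by 0.24 (SE 0.10). Pfkfb4 lay lowest, at -0.014.

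In the hypoxia list, which leaves out the glycolysis genes, all 24 listed genes were measured and none passed, 7 had an unadjusted p under 0.05, and 20 were above 0 in both pairs and 1 below. Over all genes, 25.1% were above 0 in both pairs and 23.7% below. The groups did not overlap for 18 that were higher and 1 that was lower, against 12.6% and 11.1% of the clusters. The median difference was 0.20, with 0.15 and 0.21 in the pairs. With pA AMO against the same control arrays the median was 0.046. The mean difference was above 0 for 18 of the 24 with pA AMO and for 23 with 5'ss AMO. Higd1a, a mitochondrial protein, was at 8.11 and 8.10 with control AMO and at 8.42 and 8.69 with 5'ss AMO, a difference of 0.45 (SE 0.14).

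Bnip3, a receptor of mitophagy, was higher by 0.34 (SE 0.11) and Ddit4, an inhibitor of mTORC1, by 0.29 (SE 0.11). The carbonic anhydrase Car9 was higher by 0.31 (SE 0.15) and the endoplasmic oxidoreductase Ero1a by 0.24 (SE 0.09). For all 4 the 5'ss arrays lay above the control arrays. Adm, which encodes adrenomedullin, lay furthest the other way, at 11.84 on both control arrays and 11.77 and 11.79 on the 5'ss arrays.

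The core letters of a hypoxia response element, ACGTG or GCGTG with their reverse complements CACGT and CACGC, occurred in 22 of 29 promoter windows of the 18 glycolysis members found in the RefSeq table (75.9%) and in 21 of 27 windows of 19 hypoxia members (77.8%). They occurred in 43.8% of all windows, and ACGTG is also contained in the E-box CACGTG. The lists were made of known genes of these pathways, so these shares describe the lists and are not results of the comparison. The stretches of the first 2 members of each list with a match before the start, in the same order by the smaller pair difference, show the letters in capitals, on the minus strand for all 4: Hk2 at chr6:82774631-82774704, Pfkfb3 at chr2:11502163-11502257, Higd1a at chr9:121857817-121857911 and Ddit4 at chr10:59951908-59952002.
Hk2: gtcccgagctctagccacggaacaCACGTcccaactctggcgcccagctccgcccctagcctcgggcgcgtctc
Pfkfb3: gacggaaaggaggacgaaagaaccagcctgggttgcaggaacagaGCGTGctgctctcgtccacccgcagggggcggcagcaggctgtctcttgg
Higd1a: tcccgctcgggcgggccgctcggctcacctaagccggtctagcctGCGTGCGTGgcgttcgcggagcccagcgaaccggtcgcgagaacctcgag
Ddit4: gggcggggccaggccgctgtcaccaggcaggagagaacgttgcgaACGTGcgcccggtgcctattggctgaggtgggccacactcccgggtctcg

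With PDGF-AA the glycolysis and hypoxia lists lay on the other side of 0. Their pair medians there were -0.12 and -0.17 for glycolysis, with 15 of 19 members below 0 in both pairs, and -0.043 and -0.12 for hypoxia, with 15 of 24. Over all genes the pair medians with PDGF-AA were -0.027 and -0.026, and 6858 of 19938 genes were below 0 in both pairs. Without the ligand, the mean level of the glycolysis genes was 9.83 and 9.82 on the control arrays and 9.96 and 10.05 on the 5'ss arrays. In its presence the control arrays were at 10.09 and 10.16 and the 5'ss arrays at 9.98 and 10.01. The 4 5'ss arrays thus lay between the control arrays without and with PDGF-AA. The difference of the 5'ss effect between the doses passed for 0 of 21789 clusters (0%) in limma, with 643 clusters at an unadjusted p under 0.05, and for 0 with the block, where the smallest adjusted p was 0.36.

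**Figure D4:**
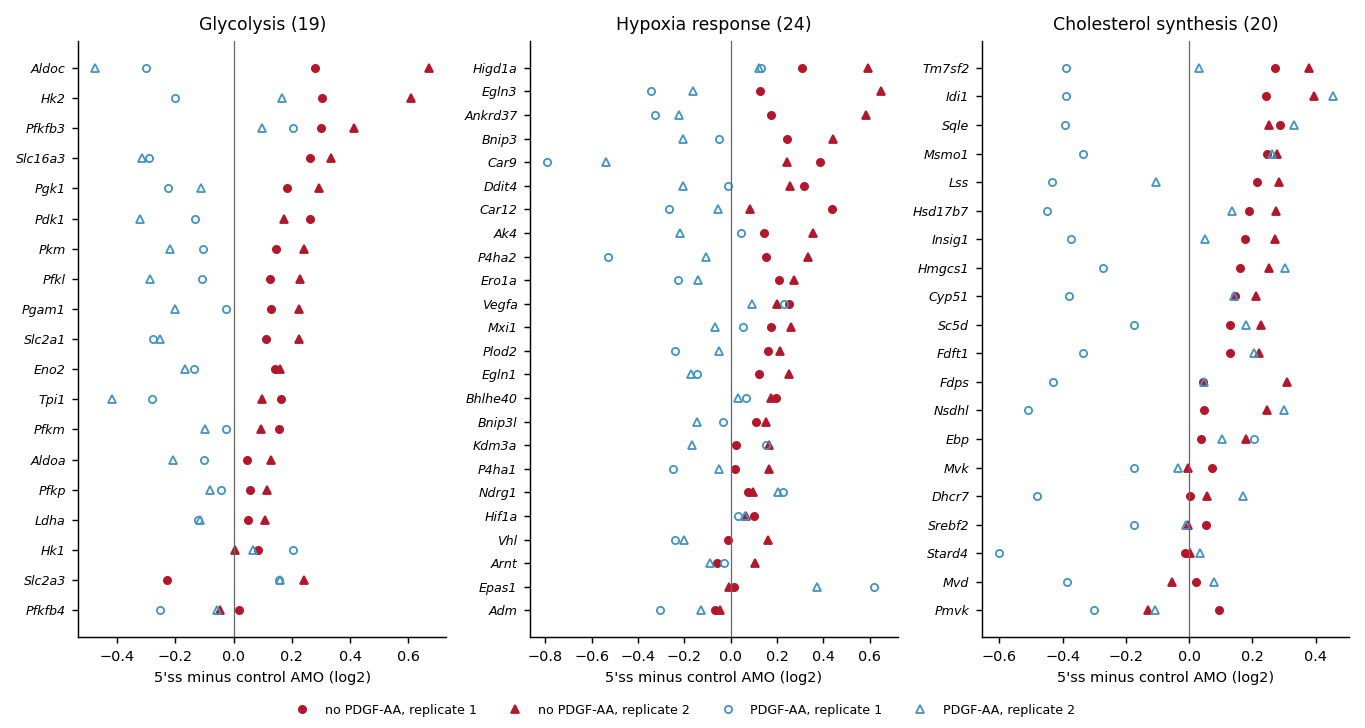
Rows are the measured genes of the glycolysis, hypoxia response and cholesterol synthesis lists, and the horizontal axes give the 5'ss minus control AMO difference in log2 units, with filled red symbols without PDGF-AA, open blue symbols with PDGF-AA, circles for replicate 1 and triangles for replicate 2. Without PDGF-AA 17 of 19, 20 of 24 and 15 of 20 genes lie above 0 in both pairs, and with PDGF-AA 15 of the 19 and 15 of the 24 lie below 0 in both.

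Cholesterol is made from acetyl units through the mevalonate pathway, whose genes are driven together by SREBP-2 when sterols are scarce. Of 24 listed genes 20 were measured and none passed, 1 had an unadjusted p under 0.05, and 15 were above 0 in both pairs, against 25.1% of all genes, and 0 below. The median difference was 0.18, with 0.13 and 0.24 in the pairs, and the groups did not overlap for 12 genes that were higher, against 12.6% of the clusters. Tm7sf2, a sterol reductase, was at 7.45 and 7.44 with control AMO and at 7.72 and 7.82 with 5'ss AMO, a difference of 0.33 (SE 0.15). Sqle, the squalene epoxidase, was at 9.24 and 9.26 and then at 9.52 and 9.51, a difference of 0.27 (SE 0.17).

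Both genes were higher on both 5'ss arrays by more than the arrays of a group differed. Idi1, the isopentenyl diphosphate isomerase, was higher by 0.32 (SE 0.19), Msmo1, a sterol oxidase, by 0.26 (SE 0.15) and Lss, which closes the sterol rings, by 0.25 (SE 0.13). Pmvk, a kinase of the mevalonate pathway, had the lowest mean difference of the list, at -0.019. With PDGF-AA the pair medians of the list were -0.38 and 0.12, on opposite sides of 0. With pA AMO and no PDGF-AA, against the same control arrays, the median was -0.069, and 1 of 20 had a mean difference above 0.

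The sterol element letters TCACNCCAC occurred, on either strand, in 1 of 19 windows of the 16 members found in the RefSeq table (5.26%), against 1.24% of all windows. This share rests on 1 window, describes the list and is not a result of the comparison. That window belongs to Hmgcs1, the hydroxymethylglutaryl-CoA synthase, whose level was 10.33 and 10.30 with control AMO and 10.49 and 10.55 with 5'ss AMO. Its stretch, at chr13:119690169-119690267 on the plus strand, is shown with the letters in capitals because it is the match in this list.
Hmgcs1: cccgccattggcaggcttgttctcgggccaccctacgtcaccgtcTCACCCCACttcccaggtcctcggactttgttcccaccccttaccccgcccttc

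**Figure D5:**
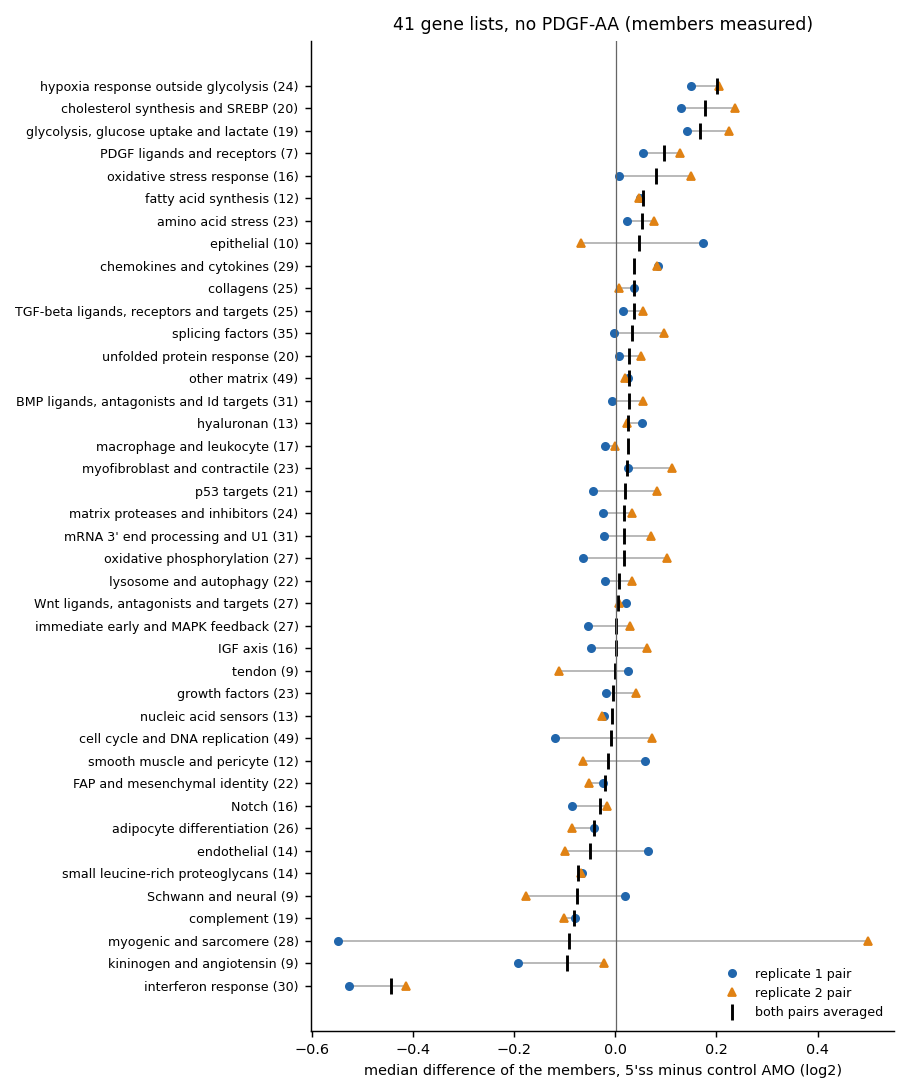
Rows are the 41 gene lists with the number of members measured, and the horizontal axis gives the median 5'ss minus control AMO difference of the members in log2 units without PDGF-AA, as circles for the replicate 1 pair, triangles for the replicate 2 pair and black ticks for the differences averaged over both pairs. The interferon response list lies lowest at -0.44, and the muscle list has its pair medians furthest apart, at -0.55 and 0.50.

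Of the 41 lists, 4 had a median of at least 0.1 in size with one sign in both pairs, and these are the lists described above. The interferon, glycolysis, hypoxia and cholesterol lists were written with earlier results of the whole series known, so their standing out is not independent of these data. Genes of the machinery that the AMO design touches had small medians. The 31 genes of 3' end processing and the U1 particle had a median of 0.017, with 10 above 0 in both pairs (32.3%) and 5 below (16.1%). The 35 splicing factors had a median of 0.032, with 15 above (42.9%) and 5 below (14.3%). Over all genes, 25.1% were above 0 in both pairs and 23.7% below. The median was 0.037 for the collagens, -0.043 for adipocyte differentiation genes, -0.0092 for cell cycle genes and -0.021 for progenitor markers. None of the members of these lists passed in limma with or without the block. The kininogen and angiotensin list, with the single gene that passed, had a median of -0.095.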

How the data were processed

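The log2 expression values were deposited by the authors, made with RMA in Affymetrix Expression Console from 100 ng of RNA per array, per the submitters' processing notes and the labels' protocols. RMA normalizes the 12 arrays together, so a shift common to most genes would not be seen. Precision is limited by the number of arrays. The genome build is not given in the sources used here. Columns of the table left unused number 0. Symbols came from the platform annotation, and 21698 clusters were found in RefSeq (GRCm38.p6), with 0 symbols changed.

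The test was limma 3.58.1, run in R 4.3.3, with a means model of 6 groups on 12 arrays with 6 residual degrees of freedom, tested on simulated data. The simulated arrays had independent noise and no deviations shared by replicate number, so they do not check the test for arrays that deviate together. P-values were two-sided and adjusted by Benjamini-Hochberg over 21789 clusters, with a threshold of 0.05. The labels do not say what same-numbered replicates share. Within each of the 15 pairs of groups, arrays sharing a number deviated together from their groups' means (correlation 0.20 to 0.61, above a criterion of 0.1), and for 12 of 12 arrays the closest other array bore the same number. By this hint from the data, not the labels, the numbers were treated as pairs, and limma with a replicate block (5 residual degrees of freedom) is given where it changes a call. A permutation test on 2 arrays against 2 cannot go below 0.33.

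The named genes are those that passed, the 12 per direction with the largest smaller pair difference among clusters above the 6.10 level, the 3 smallest p, the PDGF genes, and up to 5 members of each list described with the member furthest the other way. Predicted genes, small RNAs, pseudogenes and olfactory receptors are not named. A gene entered a list by its brightest cluster. The comparison, the lists and the rules were chosen with earlier results of these data known. Alternatives were other normalizations, filters, moderation, sets of arrays and leaving out each array.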

Additional observations from a re-analysis of the deposited data

Results flagged for a closer look

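In 6 of the 41 gene lists the median difference of 5'ss against control AMO had one sign in both pairs without PDGF-AA and the other sign in both pairs with PDGF-AA. How many lists would do so by scatter of the signs was not tested. The difference between the doses was not tested for a list, and no cluster passed the test of that difference. The median of the members' differences with minus without PDGF-AA was -0.31 for the hypoxia response and -0.30 for glycolysis. It was -0.087 for fatty acid synthesis, -0.080 for collagens, -0.020 for myofibroblast and contractile genes and 0.051 for Notch genes. Over all genes this median was -0.021, so the value of the myofibroblast list is close to that of all genes.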

How the results depend on the processing

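With 2 arrays a group, 450 clusters at an unadjusted p under 0.05 (2.07%) and a smallest adjusted p of 1, the data bound single genes loosely. The count of clusters that passed in limma was 0 in the fit without a block and 1 with the replicate block on all 12 arrays, where Kng2 passed at -1.39 (adjusted p = 0.0027). Leaving out 1 array with the block, an alternative chosen after seeing the data, gave 0 to 1 clusters, and 0 without control replicate 1, 5'ss replicate 1 or 5'ss replicate 2. With the block on the 6 arrays without PDGF-AA alone, 0 passed and Kng2 had an adjusted p of 0.071 in limma. In the comparison with PDGF-AA the block raised the count from 0 to 22. It changed no call of the difference between doses, which stayed at 0. Clusters with both pairs past 0.5 numbered 6 higher and 19 lower, and became 3 higher above the 40 percent level, 192 higher and 195 lower over all transcript clusters, 88 higher and 128 lower at a minimum of 0.3, and 0 higher and 1 lower at a minimum of 1. In these alternatives the 40 percent level was applied to the mean over all 12 arrays. By the mean over the 4 compared arrays, used for naming genes, 5 of the 6 higher clusters lay above it. Clusters whose groups did not overlap numbered 1721 higher and 1285 lower above the 40 percent level, 4776 higher and 4201 lower over all clusters, 2178 higher and 2700 lower with median centring, 3298 and 3089 with quantile normalization repeated, and 3243 and 3113 with cyclic loess, against 2735 and 2409. Leaving out 1 array moved the interferon median between -0.57 and -0.34, the glycolysis median between 0.11 and 0.18, the hypoxia median between 0.17 and 0.20 and the cholesterol median between 0.14 and 0.22. It moved Acta2 between -0.014 and 0.95 and Pdgfc between -0.095 and 0.13, where Pdgfc was -0.0096 without control replicate 1. Of 765 values of the 32 named clusters 3 changed sign, all on leaving out an array. Of 779 list values 64 changed sign, 0 of them in the 4 lists described. The cause of these shifts was not tested.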

Other observations

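Muscle fibre and myoblast genes differed by more between the arrays of a group than between the group means. Myh3, the embryonic myosin heavy chain, was at 8.82 and 7.20 on the control arrays and at 7.31 and 8.45 on the 5'ss arrays, so its pair differences were -1.50 and 1.25. Des, which encodes desmin, was at 8.80 and 7.24 and then at 7.45 and 8.12, and Acta1, the skeletal muscle actin, at 10.83 and 9.16 and then at 9.57 and 10.04. These genes, chosen after their values were seen, lay high on control replicate 1 and 5'ss replicate 2. Of the 28 muscle genes, 0 were above 0 in both pairs and 4 below. The satellite cell factor Pax7 was at 6.62 and 6.48 with control AMO and at 6.74 and 6.30 with 5'ss AMO.

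Among 29 chemokines and cytokines the median was 0.038 while the mean was -0.019, and 14 were above 0 in both pairs and 9 below. Cxcl14 differed by 0.38 and 0.45 and Il33 by 0.24 and 0.27 in the pairs, against -1.90 and -0.91 for Cxcl9. These genes were chosen after their values were seen, and none passed in limma with or without the block.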
